A study of Homo sapiens with 24 samples.

Results

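The serine/arginine-rich (SR) splicing factors described here are 10 genes, SRSF1, SRSF2, SRSF3, SRSF4, SRSF5, SRSF6, SRSF7, SRSF9, SRSF10 and SRSF11, found by symbol among the 35587 gene symbols of each deposited table. RNA came from a pair of established human acute myeloid leukaemia lines, MOLM14 and OCI-AML2, each held for 24 h with the solvent DMSO, with AZ2 or with ARM165. Every line and treatment had 4 libraries, 24 in all, made from poly(A) RNA with a stranded kit, and no genetic change was given for any group. The series is titled for a link between PI3K gamma and AKT in leukaemia and for a heterobifunctional degrader, but the labels did not say which compound that is, and they gave no doses.

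SR proteins are RNA-binding proteins with at least one RNA recognition motif and a tail of alternating arginine and serine residues. They bind enhancers in exons and help the spliceosome recognise nearby splice sites, and several of them stay with the mRNA and take part in its export and translation. Kinases of the SRPK and CLK families phosphorylate the tail, which governs entry into the nucleus and release from nuclear speckles. Most SR genes also limit their own mRNA through a poison exon or a retained intron whose inclusion sends the transcript to nonsense-mediated decay, so a gene-level value sums productive and unproductive transcripts. In GENCODE 29 the 10 genes had 107 transcripts, of which 39 were protein coding, 22 were annotated as targets of nonsense-mediated decay and 28 as retaining an intron. In myeloid neoplasms SRSF2 is a recurrently mutated gene.

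All 10 genes are protein coding. By the same annotation SRSF1 and SRSF2 lie on chromosome 17, SRSF3 on chromosome 6, SRSF4, SRSF10 and SRSF11 on chromosome 1, SRSF5 on chromosome 14, SRSF6 on chromosome 20, SRSF7 on chromosome 2 and SRSF9 on chromosome 12. Promoters of 4 members are shown because they set the genes with large falls after ARM165, SRSF1 and SRSF7, beside those that did not fall in this way, SRSF3 and SRSF6. The stretches come from the RefSeq promoter table of build GRCh38.p14, start 250 bases before the RefSeq start site, stop short of the gene in RefSeq and GENCODE, and run 5′ to 3′ on the gene's own strand. They are chr17:58007347-58007496 (minus strand) for SRSF1, chr2:38751495-38751744 (minus) for SRSF7, chr6:36594112-36594352 (plus) for SRSF3 and chr20:43457646-43457895 (plus) for SRSF6. Capitals mark matches to the motifs named after them.
SRSF1: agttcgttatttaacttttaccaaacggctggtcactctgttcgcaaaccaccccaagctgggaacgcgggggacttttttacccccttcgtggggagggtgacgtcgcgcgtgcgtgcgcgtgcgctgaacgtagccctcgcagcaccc
SRSF7: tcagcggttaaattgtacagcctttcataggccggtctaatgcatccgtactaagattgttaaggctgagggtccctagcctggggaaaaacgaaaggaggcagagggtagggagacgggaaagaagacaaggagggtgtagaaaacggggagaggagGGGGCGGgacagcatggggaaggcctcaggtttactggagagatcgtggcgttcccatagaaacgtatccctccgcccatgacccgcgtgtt
SRSF3: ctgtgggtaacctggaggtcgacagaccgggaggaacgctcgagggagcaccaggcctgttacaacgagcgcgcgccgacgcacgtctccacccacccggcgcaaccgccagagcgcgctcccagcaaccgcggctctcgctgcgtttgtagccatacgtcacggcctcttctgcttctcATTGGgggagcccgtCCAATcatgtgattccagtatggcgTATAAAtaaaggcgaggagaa
SRSF6: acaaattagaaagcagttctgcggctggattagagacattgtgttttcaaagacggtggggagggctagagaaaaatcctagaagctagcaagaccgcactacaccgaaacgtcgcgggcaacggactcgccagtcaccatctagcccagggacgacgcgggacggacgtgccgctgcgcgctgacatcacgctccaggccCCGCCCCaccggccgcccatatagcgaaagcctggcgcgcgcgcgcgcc

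The letters searched on both strands of the 250 bases were CCGGAAG for an ETS core, CACGTG for an E-box, CCAAT for the box of that name, TATAAA for a TATA box and GGGGCGG for an SP1 GC box. These motifs share no letters by overlap where they matched here. Among the promoters of 27305 genes, the ETS core was found in 8.82%, the E-box in 6.49%, the CCAAT box in 33.0%, the TATA box in 11.1% and the GC box in 29.3%. Of the 10 members 9 were in the table, all but SRSF2. The window of SRSF3 held the CCAAT motif 55 and, as ATTGG, 70 bases before the start, with TATAAA 30 bases before it. SRSF6 had CCGCCCC at 49 bases, and SRSF7 had GGGGCGG at 92 bases. None of these motifs was found in the 250 bases of SRSF1. Of the others, SRSF5 had CCGGAAG at 57 bases, SRSF4 had CTTCCGG at 241 bases and SRSF11 had TTTATA at 206 bases. Distances are from the RefSeq start. The windows of SRSF5 (chr14:69766892-69767141) and SRSF11 (chr1:70221130-70221379) lay inside the GENCODE genes, which start at 69726900 and 70205682. So did that of SRSF10, which held no match. A match is a description of the letters and not a bound site.

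Values are the deposited normalized estimated read counts, which put the libraries within a line on a common scale. A rise or fall is therefore relative to the line's other genes, levels were not compared between the lines, and in bulk RNA fewer expressing cells and less RNA per cell cannot be told apart. Estimated depth was 35.4 M to 59.0 M reads per library, and the members' values ran from 2602 to 55539, far above the filter of 10. The summed value of a MOLM14 library ran from 43.3 M to 45.0 M with DMSO and from 37.3 M to 41.2 M with ARM165, without overlap. In OCI-AML2 it ran from 42.9 M to 45.4 M and from 42.2 M to 43.8 M, with overlap. The changes below were not recomputed on these sums, and the part of the lower MOLM14 sum in them was not tested. The myeloid markers were present, with 8 of 8 reaching a value of 10 in both lines. Their summed value ran from 57882 to 61075 with DMSO and from 38246 to 44860 with ARM165 in MOLM14, and from 91287 to 98338 and from 52513 to 54180 in OCI-AML2. Most of the fall in the sum came from LYZ, whose mean went from 20319 to 2677 in MOLM14 and from 47537 to 19745 in OCI-AML2, and from CEBPA, from 27372 to 22679 and from 23679 to 12207. Single markers went both ways, with 3 of 8 higher and 4 lower in MOLM14 (median -0.015) and 1 higher and 4 lower in OCI-AML2 (median -0.57). These calls stand beside 69.5% of all genes called with ARM165 against DMSO in MOLM14 and 65.8% in OCI-AML2. PTPRC rose in both lines, from 2392 to 6229 and from 1782 to 2862, and SPI1 rose in MOLM14, from 6248 to 7877. The 6 T and NK cell markers summed to 494 to 567 with DMSO and 396 to 482 with ARM165 in MOLM14, and to 760 to 910 and 484 to 667 in OCI-AML2, with CD3E at 0 in both MOLM14 groups and 2 to 3 of the 6 reaching 10. Most of these sums was NKG7, whose mean went from 504 to 401 in MOLM14 and from 807 to 567 in OCI-AML2. GZMB went the other way, from 1.63 to 20.5 and from 0.737 to 5.39. Of the 2 tested in MOLM14, 1 was called higher and 1 lower. The 4 B cell markers summed to 551 to 668 and 312 to 393 in MOLM14, and to 48.1 to 70.4 and 17.5 to 40.7 in OCI-AML2, where MS4A1 was at 0 in both groups. Sums of the 5 erythroid and megakaryocyte markers stayed at or under 28.8 with DMSO or ARM165, with PF4 at 0, and those of the 6 epithelial and fibroblast markers at or under 62.3. The part of these shifts in the results below was not tested.

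All 10 SR genes passed the filter on low values in both lines. After ARM165 in MOLM14, 8 of the 10 fell and none passed the test for a rise, against 7 lower and 3 higher with quantile normalization and 8 lower and 2 higher with upper-quartile scaling. SRSF1 and SRSF5 were at about 0.485 and 0.496 of their DMSO level, SRSF2 at 0.529 and SRSF7 at 0.571. In OCI-AML2, 5 fell and 3 rose: SRSF1, SRSF2, SRSF7, SRSF9 and SRSF10 were lower, and SRSF3, SRSF6 and SRSF11 were higher. Changes with ARM165 were widespread, with 69.5% of 15288 genes tested called in MOLM14 (35.5% higher and 34.0% lower) and 65.8% of 15377 in OCI-AML2 (34.2% higher and 31.6% lower). The share of members called, 8 of 10 in each line, was therefore near the background, and 8 of 10 lower in MOLM14 stands beside 34.0% of all genes. The median change of the members was -0.37 in MOLM14 and -0.22 in OCI-AML2 on the log2 scale, beside medians of 0.031 and 0.034 over all genes.

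**Figure D1:**
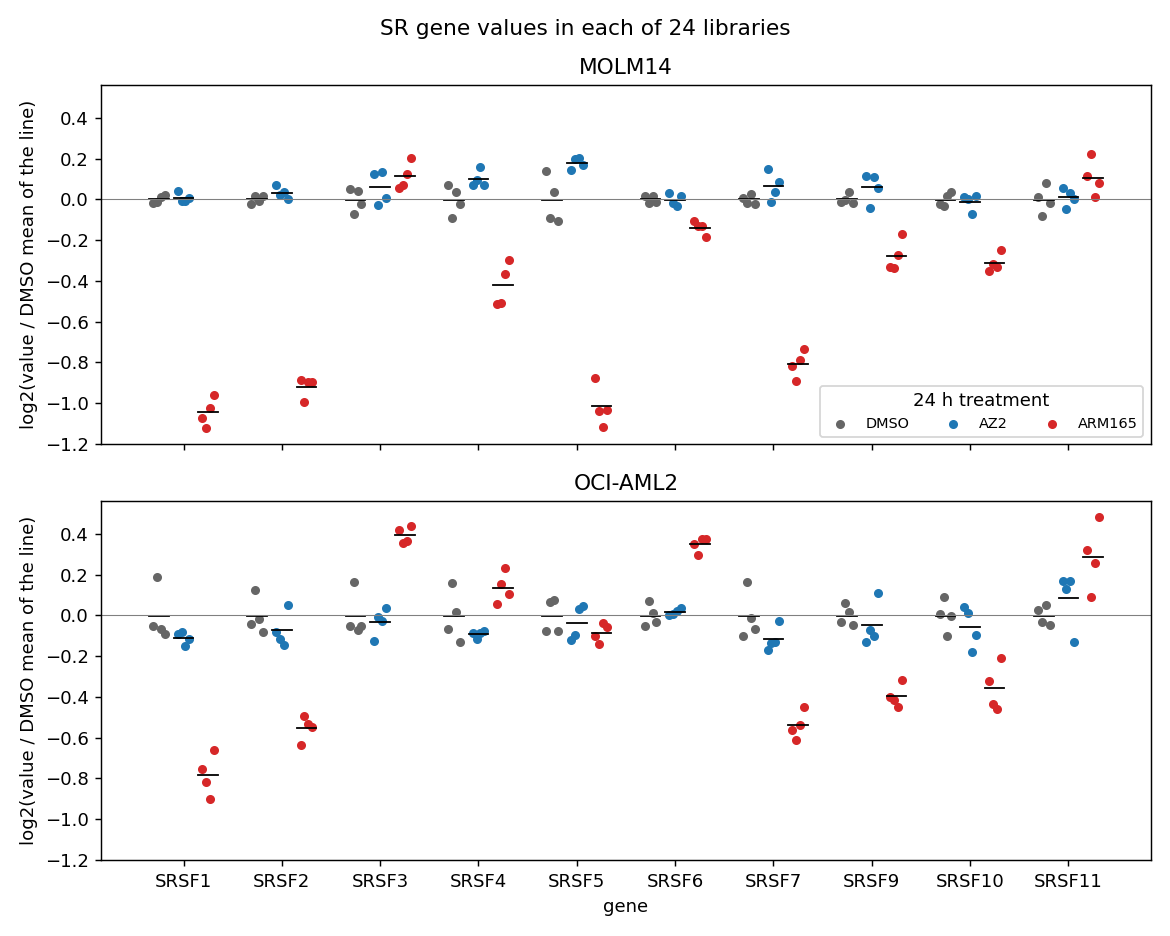
Value of each SR gene in every library, as log2 of the value over the DMSO mean of the same line (vertical axis), by gene (horizontal axis), line (panel) and treatment (colour), with 4 points per group and a short line at the group mean. With ARM165 the points of SRSF1, SRSF2 and SRSF7 lie below all DMSO points in both lines, while those of SRSF5 do so in MOLM14, at values of 2815 to 3327 against 5680 to 6738, and overlap with DMSO in OCI-AML2.

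SRSF1, SRSF2 and SRSF7 changed together in both lines. SRSF1, long known as SF2/ASF and a founding member of the family, read 22342, 22417, 22766 and 22921 with DMSO in MOLM14 and 10738, 10392, 11138 and 11619 with ARM165. The groups stood far apart, and every ARM165 library was below every DMSO library. The change was -1.04 ± 0.039 (SE, adjusted p = 3.34e-12). In OCI-AML2 it read 17808, 21060, 17642 and 17362 with DMSO and 10961, 10489, 9890 and 11674 with ARM165, a change of -0.78 ± 0.065 (adjusted p = 3.29e-08). DMSO replicate 2 was the high library of its group, and without it the change was -0.71. Ranked by the size of the change, SRSF1 exceeded 72.4% of all genes tested in MOLM14 and 56.9% in OCI-AML2.

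SRSF2, also called SC35, read 21713, 22373, 21932 and 22313 with DMSO in MOLM14 and 11954, 11077, 11849 and 11870 with ARM165. It fell by 0.92 on the log2 scale (SE 0.036, adjusted p = 6.32e-12), with no overlap. In OCI-AML2 SRSF2 read 23762, 26676, 24151 and 23125 with DMSO and 15736, 17333, 16861 and 16740 with ARM165. This was a change of -0.55 ± 0.057 (adjusted p = 4.44e-07), again without overlap.

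SRSF7, which carries a zinc knuckle beside its RNA recognition motif and acts as an export adaptor, read 23778, 23327, 24100 and 23289 with DMSO in MOLM14 and 13382, 12730, 13671 and 14185 with ARM165. Its change was -0.81 ± 0.044 (adjusted p = 1.88e-10). In OCI-AML2 the DMSO libraries read 16186, 19498, 17252 and 16577, and the ARM165 libraries 11784, 11387, 11976 and 12718. All 4 treated libraries were below the lowest control, with a change of -0.54 ± 0.060 (adjusted p = 1.07e-06). Over the 24 libraries, after each line was centred on its own mean, the pairs SRSF1 and SRSF2, SRSF1 and SRSF7, and SRSF2 and SRSF7 had Pearson correlations of 0.982, 0.986 and 0.988. These describe points that share libraries, scaling and 8 strongly shifted ARM165 libraries.

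SRSF9 and SRSF10 fell in both lines by less. SRSF9, a short-tailed relative of SRSF1, was at 18111 ± 302 (SD, n = 4) with DMSO and 14954 ± 834 with ARM165 in MOLM14, and at 21263 ± 753 and 16161 ± 635 in OCI-AML2. Its changes were -0.28 ± 0.047 (adjusted p = 6.95e-05) and -0.40 ± 0.056 (adjusted p = 1.29e-05). Under quantile normalization the MOLM14 value was -0.11 and still passed (adjusted p = 0.00241). SRSF10, which acts as a splicing repressor when dephosphorylated, was at 9194 ± 217 and 7415 ± 237 in MOLM14 and at 7322 ± 405 and 5739 ± 465 in OCI-AML2. The changes of SRSF10 were -0.31 ± 0.038 (adjusted p = 2.63e-06) and -0.35 ± 0.067 (adjusted p = 0.000235). For both genes, the ARM165 libraries lay below all DMSO libraries in each line.

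SRSF4, SRSF5 and SRSF6 are near relatives, each with a pair of RNA recognition motifs, and with the deposited scaling they fell in MOLM14 but not in OCI-AML2. SRSF5 read 6738, 5736, 6268 and 5680 with DMSO in MOLM14 and 3327, 2975, 2815 and 2984 with ARM165. Its fall of -1.01 ± 0.060 (adjusted p = 5.16e-10) was close in size to that of SRSF1. In OCI-AML2 SRSF5 read 9878, 10903, 10968 and 9881 with DMSO and 9688, 9452, 10128 and 9990 with ARM165. Here the groups overlapped, with a change of -0.083 ± 0.055, an interval from -0.20 to 0.035 and an adjusted p of 0.201. Upper-quartile scaling gave -0.12 and passed (adjusted p = 0.0323), while quantile normalization gave -0.035 and did not (adjusted p = 0.462). Only 7.10% of genes tested in OCI-AML2 had a smaller change than SRSF5, against 70.9% in MOLM14.

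SRSF4 read 3895, 3485, 3806 and 3656 with DMSO in MOLM14 and 2602, 2609, 2881 and 3015 with ARM165, a change of -0.42 ± 0.055 (adjusted p = 5.30e-06) with no overlap. In OCI-AML2 SRSF4 read 3824, 4472, 4045 and 3656 with DMSO and 4158, 4452, 4693 and 4306 with ARM165. The high DMSO replicate 2 lay among the treated libraries, and the change of 0.14 ± 0.062 did not pass (adjusted p = 0.0564). Without that library it was 0.20 and passed (adjusted p = 0.00555), and without ARM165 replicate 1 it was 0.17 (adjusted p = 0.0410).

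SRSF6 changed in opposite directions in the lines as the values were deposited. In MOLM14 it read 25156, 24571, 25171 and 24645 with DMSO and 23093, 22722, 22705 and 21922 with ARM165. This small fall of -0.14 ± 0.034 (adjusted p = 0.00197) depended on the scaling, since quantile normalization gave a rise of 0.18 (adjusted p = 0.00191). In OCI-AML2 SRSF6 read 37082, 40342, 38841 and 37593 with DMSO and 49017, 47207, 49945 and 49947 with ARM165. That rise of 0.35 ± 0.043 (adjusted p = 2.90e-06) had no overlap and was 0.53 under quantile normalization.

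SRSF3, the smallest SR protein and an export adaptor, did not fall in either line. In OCI-AML2 it read 39573, 45820, 38956 and 39469 with DMSO and 54762, 52478, 52698 and 55539 with ARM165. All treated libraries were above the highest control, with a rise of 0.40 ± 0.057 (adjusted p = 1.59e-05). In MOLM14 SRSF3 read 45260, 41630, 44966 and 42975 with DMSO and 45474, 45905, 47704 and 50352 with ARM165. The groups just failed to overlap, and the change of 0.12 ± 0.050 did not pass (adjusted p = 0.0527). It passed with quantile normalization at 0.46 (adjusted p = 3.31e-10), with upper-quartile scaling at 0.13 (adjusted p = 0.00408) and without any one of DMSO replicate 1, AZ2 replicate 2, ARM165 replicate 1 or ARM165 replicate 2 (adjusted p from 0.0417 to 0.0494).

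SRSF11, an atypical member also called p54, read 6128, 5879, 6231 and 5827 with DMSO in OCI-AML2 and 7507, 6404, 7197 and 8403 with ARM165. It rose by 0.29 ± 0.081 (adjusted p = 0.00525), and its treated libraries were the most spread of its groups. In MOLM14 SRSF11 was at 6759 ± 316 with DMSO and 7294 ± 450 with ARM165, with overlapping groups and a change of 0.11 ± 0.050 (adjusted p = 0.0627). This change passed at 0.17 with quantile normalization (adjusted p = 0.00934), at 0.12 with upper-quartile scaling (adjusted p = 0.0448), at 0.14 without DMSO replicate 3 (adjusted p = 0.0317) and at 0.14 without ARM165 replicate 3 (adjusted p = 0.0235). It was 0.070 without ARM165 replicate 2. Counting all 10 genes, the ARM165 and DMSO libraries did not overlap for 9 in MOLM14 and 8 in OCI-AML2, where 63.8% and 60.5% of all genes did not.

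**Figure D2:**
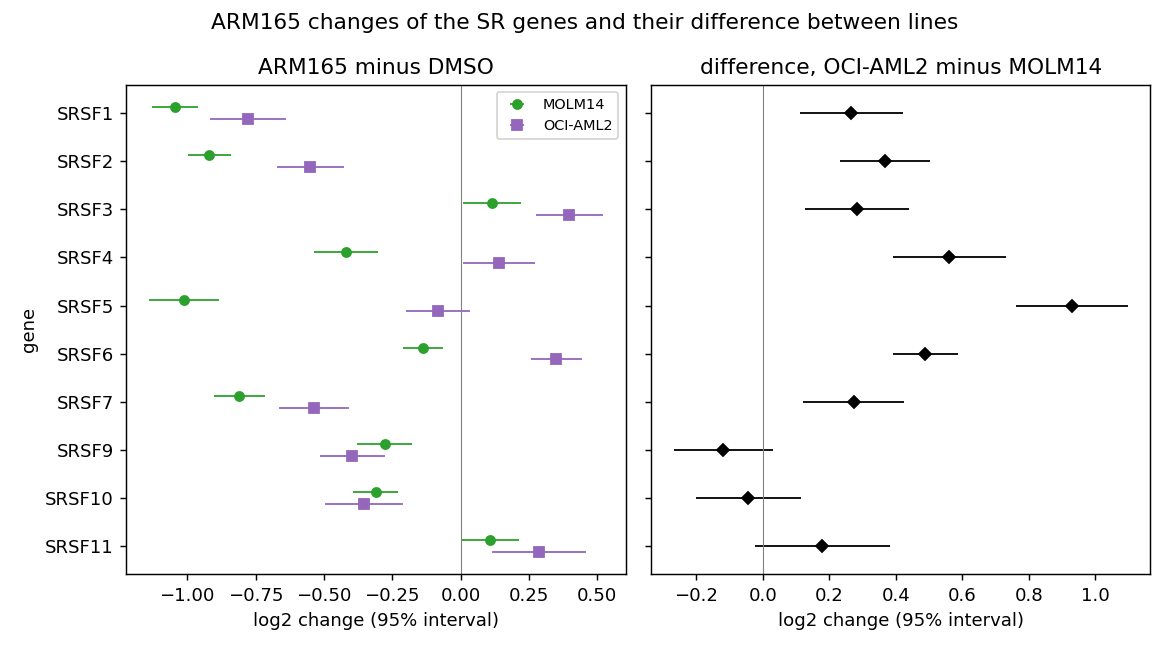
Left, change of each SR gene with ARM165 against DMSO (log2 scale, horizontal axis) in MOLM14 and OCI-AML2, and right, the difference of that change between the lines, with bars for the 95% interval. The changes of SRSF5 lie apart, at -1.01 in MOLM14 and -0.083 in OCI-AML2, and its difference of 0.93 is the highest on the right.

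Whether the change differed between the lines was tested directly over all 24 libraries. For 7 of the 10 genes the change with ARM165 was higher in OCI-AML2 than in MOLM14, and for none was it called lower, where 42.4% of 14287 genes were called (24.3% higher and 18.1% lower). Quantile normalization gave 6 higher and 1 lower, and upper-quartile scaling 7 higher and 1 lower. SRSF5 had the largest difference of the 10, 0.93 ± 0.082 (adjusted p = 2.86e-09), followed by SRSF4 with 0.56 ± 0.082 (adjusted p = 6.12e-06) and SRSF6 with 0.49 ± 0.047 (adjusted p = 1.38e-08). SRSF2 differed by 0.37 ± 0.065 (adjusted p = 7.27e-05) and SRSF1 by 0.27 ± 0.075 (adjusted p = 0.00596), both falling less in OCI-AML2. SRSF7 differed by 0.27 ± 0.074 (adjusted p = 0.00424), and by 0.14 under quantile normalization (adjusted p = 0.0103). SRSF3 differed by 0.28 ± 0.076 (adjusted p = 0.00388), and by 0.086 without passing under quantile normalization (adjusted p = 0.159).

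The remaining 3 did not pass. SRSF10 differed by -0.043 (adjusted p = 0.691) and SRSF11 by 0.18 (adjusted p = 0.150). The SRSF11 difference was 0.24 without ARM165 replicate 2 of OCI-AML2, which passed (adjusted p = 0.0344), and 0.11 without ARM165 replicate 4, which did not (adjusted p = 0.344). SRSF9 differed by -0.12 (adjusted p = 0.196) but passed as lower in OCI-AML2 under quantile normalization, at -0.19 (adjusted p = 0.000722), and upper-quartile scaling, at -0.17 (adjusted p = 0.00769). The members' median difference was 0.28, beside 0.044 over all genes.

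Shares within the family are unaffected by a single scale factor per library, although quantile normalization, which moves genes unequally, would change them. The 10 genes together made up 0.409% ± 0.00054 (SD, n = 4) of a library's summed value with DMSO and 0.366% ± 0.0062 with ARM165 in MOLM14. In OCI-AML2 the corresponding shares were 0.428% ± 0.015 and 0.431% ± 0.011, with DMSO replicate 2 at 0.451% and the others at 0.418 to 0.424%. Of that SR total, SRSF3 held 24.2% ± 0.55 with DMSO and 33.4% ± 0.69 with ARM165 in MOLM14, and 21.7% ± 0.61 and 29.0% ± 0.39 in OCI-AML2. For SRSF6 the share went from 13.8% ± 0.087 to 16.0% ± 0.75 in MOLM14 and from 20.4% ± 0.51 to 26.4% ± 0.51 in OCI-AML2. SRSF1 went the other way, from 12.5% ± 0.25 to 7.75% ± 0.17 and from 9.77% ± 0.37 to 5.79% ± 0.30. For each of these 3 genes the ranges with and without ARM165 did not overlap in either line. The shares are of reads without correction for transcript length, so they show how the mix moved and not which protein is the most abundant, and they are linked because they sum to the whole.

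**Figure D3:**
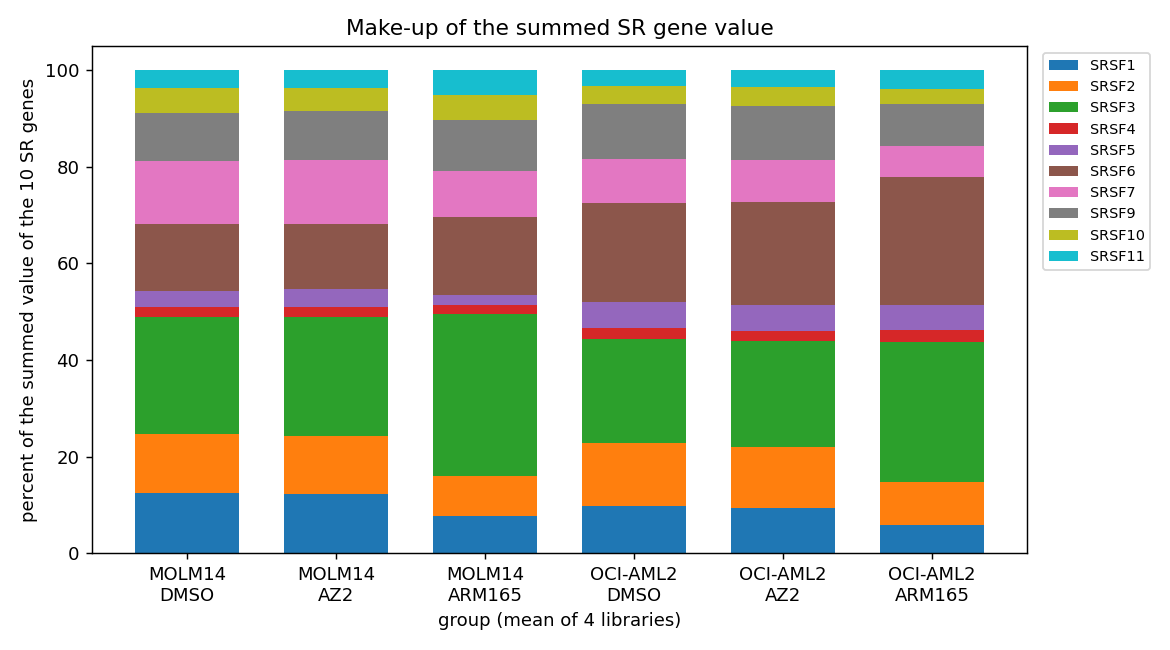
Stacked bars of the percent of the summed SR value held by each gene (vertical axis, mean of 4 libraries) for every line and treatment, without correction for transcript length. The SRSF3 part is 24.2%, 24.5% and 33.4% with DMSO, AZ2 and ARM165 in MOLM14, and 21.7%, 21.9% and 29.0% in OCI-AML2.

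AZ2 changed none of the 10 genes by the test in either line. In MOLM14 the members' changes ran from -0.011 to 0.18, and limma called 0% of all genes tested. SRSF5 had the largest of them, with 6738, 5736, 6268 and 5680 in DMSO and 6752, 7007, 7028 and 6866 in AZ2. Its libraries lay just above all DMSO libraries, with a change of 0.18 ± 0.060, an interval from 0.055 to 0.31, an unadjusted p of 0.00809 from the limma model and an adjusted p of 0.675. It was the 1 member of 10 with an unadjusted p under 0.05, where 5.88% of all genes had one. SRSF4 and SRSF5 were the 2 members whose AZ2 and DMSO libraries did not overlap, where 4.43% of all genes did not.

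In OCI-AML2 the members' changes with AZ2 ran from -0.11 to 0.084, 0 of 10 had an unadjusted p under 0.05 (4.77% of all genes did), and 0 of 10 were called by limma beside 0.111% of all genes. No member's AZ2 and DMSO libraries were separate there (2.67% of all genes). For the difference of the AZ2 change between the lines limma called 0 members and 0.0280% of all genes. SRSF4, SRSF5 and SRSF7 had unadjusted intervals below 0, as 3 of 10 members beside 5.22% of all genes with an unadjusted p under 0.05, with differences of -0.19, -0.22 and -0.18 and adjusted p of 0.913, 0.831 and 0.875. These intervals bound the AZ2 effect but do not show that it is absent.

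The compounds were then set against each other, for which the doses were not given and so are not known to match. With 10 genes in each of the 2 lines, p-values were adjusted over all genes of each comparison. In MOLM14 8 members were lower with ARM165 than with AZ2, the same 8 that fell against DMSO, and 70.1% of all genes were called (36.1% higher and 34.0% lower). The libraries did not overlap for 8 of 10 members in each line, beside 63.6% of all genes in MOLM14 and 61.4% in OCI-AML2. SRSF5 was lower by the most, with a difference of -1.19 ± 0.060 (adjusted p = 7.27e-11), and SRSF1 differed by -1.05 ± 0.039 (adjusted p = 2.90e-12). SRSF6 differed by -0.14 and, under quantile normalization, by 0.19 (adjusted p = 0.00102). SRSF3 and SRSF11 had intervals from -0.054 to 0.16 and from -0.0095 to 0.20 and did not pass (adjusted p = 0.356 and 0.0959). Under quantile normalization both passed as higher, SRSF3 at 0.44 (adjusted p = 5.31e-10) and SRSF11 at 0.15 (adjusted p = 0.0136), and SRSF11 also passed at 0.13 without ARM165 replicate 3 (adjusted p = 0.0364). Without ARM165 replicate 2 the SRSF11 difference was 0.057 (adjusted p = 0.300), and the SRSF3 difference was 0.024 without AZ2 replicate 2 or ARM165 replicate 4 (adjusted p = 0.699 and 0.674).

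In OCI-AML2 5 members were lower and 4 higher with ARM165 than with AZ2, where 65.8% of all genes were called (34.5% higher and 31.4% lower). SRSF4, with AZ2 libraries of 3765, 3686, 3761 and 3792, was higher with ARM165 by 0.23 ± 0.062 (adjusted p = 0.00400) and had no overlap. SRSF3 was higher by 0.43 ± 0.057 (adjusted p = 7.99e-06) and SRSF6 by 0.33 ± 0.043 (adjusted p = 5.17e-06). The difference of SRSF11, 0.20 ± 0.081 (adjusted p = 0.0370), was carried by overlapping groups and did not pass in 8 alternatives, among them upper-quartile scaling (0.14, adjusted p = 0.154) and those without AZ2 replicate 4 (0.13, adjusted p = 0.134), ARM165 replicate 4 (0.14, adjusted p = 0.132), ARM165 replicate 1 (adjusted p = 0.0764) or ARM165 replicate 3 (adjusted p = 0.0530). SRSF5 differed by -0.050, with an interval from -0.17 to 0.068 (adjusted p = 0.449), and by -0.11 with upper-quartile scaling (adjusted p = 0.0457). Leaving out 1 library at a time moved that SRSF5 difference between -0.079 without AZ2 replicate 1 and -0.023 without AZ2 replicate 4. The DMSO and AZ2 comparisons with ARM165 share the ARM165 libraries.

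The SR family has a pair of members outside the 10. SRSF8, a retrogene relative of SRSF2, was at 1008 ± 191 with DMSO and 1158 ± 68.2 with ARM165 in MOLM14 (change 0.22 ± 0.12, adjusted p = 0.110). In OCI-AML2 SRSF8 went from 2800 ± 146 to 3729 ± 370, a rise of 0.41 ± 0.082 (adjusted p = 0.000378). SRSF12 was under the filter on low values in both lines. SRSF8 and SRSF2 are close in sequence, so how the quantification divided their reads is uncertain. Of 13 SR pseudogenes looked for, 3 were in the tables and SRSF9P1 alone passed the filter, in OCI-AML2, with a change of -1.07 (adjusted p = 0.0797).

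Kinases that phosphorylate SR proteins rose and fell after ARM165. Of 10 such kinases, 6 rose and 3 fell in MOLM14, and 5 rose and 1 fell in OCI-AML2, with medians of 0.42 and 0.30. Of all genes, 69.5% were called in MOLM14 (35.5% higher and 34.0% lower) and 65.8% in OCI-AML2 (34.2% higher and 31.6% lower). The 6 of 10 called in OCI-AML2 were near that share, while in MOLM14 only 1 of 10 was not called. Quantile normalization gave 6 higher and 2 lower in MOLM14, where PRPF4B went from -0.16 to -0.10 and was no longer called (adjusted p = 0.0698). Upper-quartile scaling left 6 higher and 3 lower there. The kinases were not tested as a group, so these counts are no result about them as a group. CLK1, a nuclear kinase that releases SR proteins from speckles, went from 2606 ± 145 to 10719 ± 641 in MOLM14 and from 2879 ± 314 to 10180 ± 755 in OCI-AML2. Its changes were 2.04 ± 0.053 (adjusted p = 1.10e-13) and 1.82 ± 0.086 (adjusted p = 4.19e-11), and the groups were far apart. CLK4, its nearest relative, rose by 1.63 ± 0.068 and 1.21 ± 0.069 (adjusted p = 1.17e-11 and 3.96e-10). DYRK1A, a related dual-specificity kinase that also acts on splicing factors, rose by 1.12 ± 0.058 and 1.14 ± 0.064 (adjusted p = 1.09e-10 and 3.40e-10).

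SRPK1, the cytoplasmic kinase that primes SR proteins for nuclear import, fell from 1863 ± 39.1 to 741 ± 62.6 in MOLM14 and from 1690 ± 159 to 824 ± 30.6 in OCI-AML2. Its changes were -1.33 ± 0.062 (adjusted p = 3.69e-11) and -1.03 ± 0.072 (adjusted p = 4.37e-09). Thus 5 of the 10 kinases rose and 1 fell in both lines. How many of all genes were called the same way in both lines was not counted, here or for the lists below. No gene of this or the following lists was called with AZ2 in either line.

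A further 6 genes encode partners of SR proteins. Both NXF1, the mRNA export receptor that SRSF3 and SRSF7 recruit, and its cofactor NXT1 changed in both lines, in opposite directions. NXF1 rose by 0.90 ± 0.054 in MOLM14 and 1.15 ± 0.050 in OCI-AML2 (adjusted p = 6.27e-10 and 1.97e-11). NXT1 went from 1554 ± 23.5 to 609 ± 131 in MOLM14 and from 2703 ± 224 to 908 ± 29.5 in OCI-AML2, changes of -1.37 ± 0.11 and -1.57 ± 0.075 (adjusted p = 1.47e-08 and 4.92e-11). Of the catalytic subunits of protein phosphatase 1, which dephosphorylates SR proteins, PPP1CC fell by -0.61 in both lines and PPP1CB rose by 0.69 and 0.75. PPP1CA was called lower in MOLM14, at -0.16, and higher in OCI-AML2, at 0.23. Of the 6 partners 3 were higher and 3 lower in MOLM14, and 3 were higher, 2 lower and 1 not called in OCI-AML2, beside 69.5% and 65.8% of all genes called.

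Other proteins with arginine/serine-rich stretches, here 31 SR-related genes, included 15 that rose, 10 that fell and 6 not called in MOLM14, and 18, 3 and 10 in OCI-AML2. Of all genes, 35.5% rose and 34.0% fell in MOLM14, and 34.2% rose and 31.6% fell in OCI-AML2, so the 10 of 31 lower in MOLM14 and the 21 of 31 called in OCI-AML2 are near the background. The same 13 rose in both lines and the same 3 fell in both, while 2 fell in MOLM14 and rose in OCI-AML2. No share of all genes stands beside these counts over both lines, so they are no result about the list. RSRC2, which has an arginine/serine-rich coiled coil, went from 3716 ± 78.1 to 8847 ± 549 in MOLM14 and from 3188 ± 139 to 7871 ± 655 in OCI-AML2. Its rises were 1.25 ± 0.053 and 1.30 ± 0.063 (adjusted p = 1.31e-11 and 5.70e-11). CCNL1, a cyclin that partners CDK11 in splicing control, rose by 0.83 ± 0.043 and 1.24 ± 0.066 (adjusted p = 1.15e-10 and 1.71e-10). Among those that fell in MOLM14, ZRANB2, a zinc-finger splicing factor, fell by 1.09 on the log2 scale (SE 0.043, adjusted p = 5.83e-12), and RNPS1, a component bound to the exon junction complex, fell by 0.97 (SE 0.040, adjusted p = 9.12e-12). In OCI-AML2, BCLAF1 rose by 1.00 ± 0.069 (adjusted p = 3.93e-09) and SFSWAP, a regulator of splicing that limits its own mRNA, by 0.68 ± 0.050 (adjusted p = 7.42e-09). These genes moved the same way in the other line. BCLAF1 and SFSWAP were also called higher in MOLM14, at 0.18 and 0.49. RNPS1 was also called lower in OCI-AML2, at -0.59, and the mean of ZRANB2 went from 3474 to 2495 there.

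For these SR-related genes the difference of the ARM165 change between the lines was called higher in OCI-AML2 for 20 of 31 and lower for 0, beside 24.3% and 18.1% of all genes. Quantile normalization gave 16 higher and 2 lower, and upper-quartile scaling 16 and 1.

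Factors of nonsense-mediated decay, the pathway that removes the unproductive SR transcripts, were also followed. Of 10 factors the same 8 rose in both lines and 0 fell, beside 35.5% of all genes higher and 34.0% lower in MOLM14 and 34.2% and 31.6% in OCI-AML2. The share of all genes that rose in both lines was not counted. SMG9, a subunit of the SMG1 kinase complex, went from 960 ± 75.1 to 1915 ± 110 in MOLM14 and from 1837 ± 24.4 to 3491 ± 71.3 in OCI-AML2, rises of 1.00 ± 0.073 and 0.93 ± 0.052 (adjusted p = 6.40e-09 and 3.00e-10). UPF3B, which bridges the exon junction complex to the decay machinery, rose by 0.53 ± 0.064 and 0.68 ± 0.089 (adjusted p = 2.52e-06 and 4.99e-06). SMG6, the endonuclease of the pathway, rose by 1.10 ± 0.14 in MOLM14 (adjusted p = 5.02e-06), and UPF2 by 0.34 ± 0.055 (adjusted p = 5.09e-05). In OCI-AML2 UPF3A rose by 0.51 ± 0.077 (adjusted p = 2.68e-05) and SMG1, the kinase that phosphorylates UPF1, by 0.46 ± 0.080 (adjusted p = 9.74e-05). Quantile normalization gave 8 higher and 1 lower in MOLM14 and 7 higher in OCI-AML2.

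**Figure D4:**
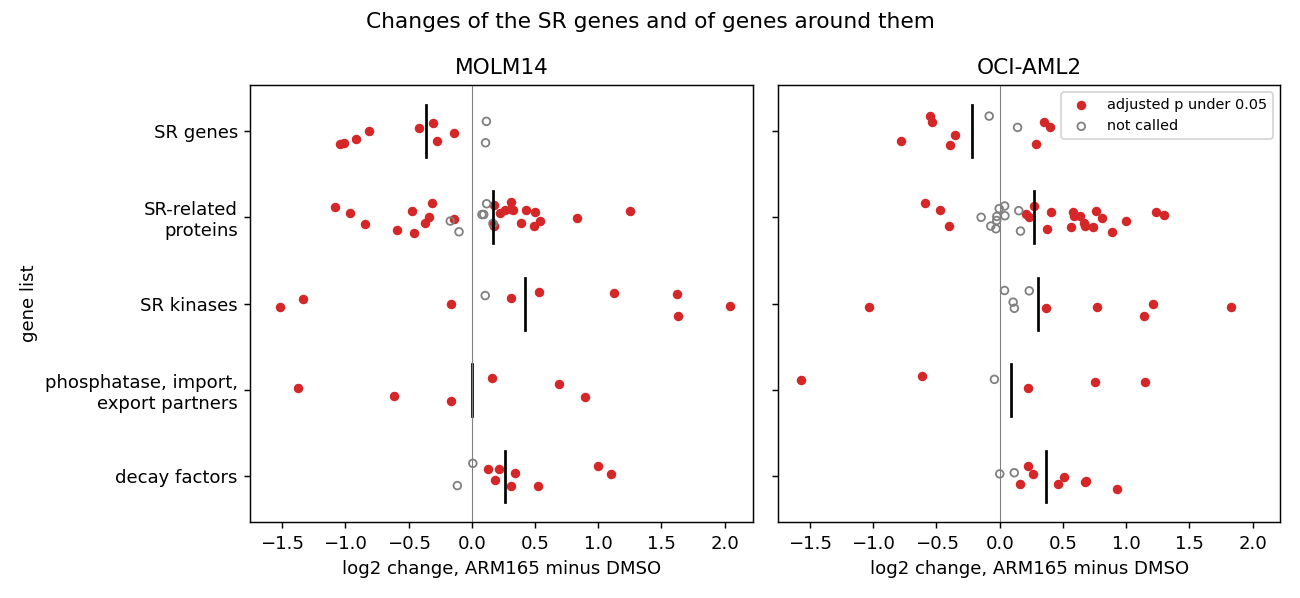
Change with ARM165 against DMSO (log2 scale, horizontal axis) of each gene of the SR members and the lists around them, by cell line, with 1 point per gene, filled where the adjusted p was under 0.05, and a black line at each list's median. CLK1 is the highest point among the kinases, at 2.04 in MOLM14 and 1.82 in OCI-AML2, and 8 of 10 decay factors are filled and above 0 in each line.

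The genes most like SRSF1 over the 24 libraries, with each line centred on its own mean, were CCT2, AMD1, DDX21, ABCB10 and HSPH1, among 14287 genes. Their Pearson correlations with SRSF1 all rounded to 0.994. Their changes with ARM165 ran from -1.89 for ABCB10 to -0.93 for CCT2 in MOLM14, and from -1.50 for ABCB10 to -0.73 for CCT2 in OCI-AML2. SRSF7 was at rank 70 and SRSF2 at rank 129 of the same order. SRSF3, at -0.596, and SRSF11, at -0.574, ran against SRSF1. SRSF3 and SRSF6 had a correlation of 0.762 with each other, and SRSF4 and SRSF5 of 0.843. Neither pair changed the same way in both lines. With ARM165 in MOLM14 SRSF3 changed by 0.12 and SRSF6 by -0.14, and both rose in OCI-AML2. SRSF4 and SRSF5 both fell in MOLM14 but changed by 0.14 and -0.083 in OCI-AML2. Of these opposite changes, those of SRSF3, SRSF4 and SRSF5 did not pass. These correlations rest on the same libraries and mostly on the contrast of ARM165 with the rest, and they describe these libraries only.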

How the data were processed

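Per the labels' protocols, poly(A) RNA was sequenced from stranded libraries, and the quantification used kallisto, per the submitters' processing notes, which state no version. The authors deposited 1 signal table per cell line, of normalized estimated counts per gene symbol. The build, annotation, summing to genes and scaling method are not given in the sources used here. Of the values above 0, 15.1 to 15.8% fell within 0.01 of a whole number of reads, so count tests were not used. No columns were left out (0).

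Groups follow the labelled line and treatment. Within a line a gene needed a value of 10 or more in 4 or more libraries, and log2(value + 1) was fitted per line over its 12 libraries, and over all 24 for differences between lines, with limma 3.58.1 in R 4.3.3 (variance trend, empirical Bayes, two-sided, 9 or 18 residual degrees of freedom). Benjamini-Hochberg adjustment ran over all genes tested, and genes were called under 0.05. The log2(value + 1) scale understates changes of low genes. Intervals are 95% and unadjusted. The fit was tested on simulated data. The labels do not say whether replicates were separate cultures, so p-values measure the spread between libraries, which may be technical.

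The members and gene lists were chosen with earlier results of these data known. Named were all 10 members, from each list the 4 called genes of smallest adjusted p for ARM165 against DMSO in each line, and the 5 genes best correlated with the member of largest mean change. PPP1CC and PPP1CB came under that rule, and PPP1CA was named beside them as the remaining catalytic subunit. Alternatives were a pseudocount of 5, no filter, quantile and upper-quartile scaling, a replicate block, only the groups compared, and leaving out each library. Plots used Python 3.11.15 with matplotlib 3.10.9.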

Additional observations from a re-analysis of the deposited data

Results flagged for a closer look

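Among the 60 groups of 4 libraries (10 genes, 6 groups), 5 held a library far from the other 3, where chance flags about 1 in 20. OCI-AML2 DMSO replicate 2 was the highest of its group for SRSF1, at 21060, and for SRSF3, at 45820. The lowest libraries set apart were MOLM14 ARM165 replicate 2 for SRSF2, at 11077, MOLM14 AZ2 replicate 3 for SRSF10, at 8746, and OCI-AML2 AZ2 replicate 4 for SRSF11, at 5489. Without OCI-AML2 DMSO replicate 2, the ARM165 change in that line was -0.71 for SRSF1 and 0.45 for SRSF3.

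The change with ARM165 differed between the lines for 7 of the 10 SR genes by the interaction test in limma. Of 14287 genes tested, 42.4% were called for this difference (24.3% higher and 18.1% lower). The differences, OCI-AML2 minus MOLM14 on the log2 scale, were 0.27 for SRSF1, 0.37 for SRSF2, 0.28 for SRSF3, 0.56 for SRSF4, 0.93 for SRSF5, 0.49 for SRSF6 and 0.27 for SRSF7. Under quantile normalization the SRSF3 difference was 0.086 and did not pass in limma (adjusted p = 0.159).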

How the results depend on the processing

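The number of SR genes called did not move by over 1.5 times under any alternative run. Leaving out 1 library gave 8 to 9 for ARM165 against DMSO or AZ2 in either line, 7 to 8 for the difference between lines and 0 for AZ2. Quantile normalization turned SRSF6 in MOLM14 to 0.18 against DMSO and 0.19 against AZ2, and the cause was not tested. It moved the median of all genes by -0.10 for ARM165 against AZ2 in MOLM14, and by less elsewhere. For all genes, the 0 called with AZ2 in MOLM14 became 1 with only the groups compared and 0 to 3 without 1 library (3 without AZ2 replicate 3). The 17 called with AZ2 in OCI-AML2 became 10 with the replicate block and 9 to 17 without 1 library (9 without DMSO replicate 1 or AZ2 replicate 2). The 4 called for the difference of the AZ2 change became 2 with the replicate block, 8 with only the groups compared and 0 to 7 without 1 library (7 without MOLM14 DMSO replicate 3). The causes of these moves were not tested. With the replicate block SRSF3 passed in MOLM14 (adjusted p = 0.0421) and SRSF11 did not pass for ARM165 against AZ2 in OCI-AML2 (adjusted p = 0.0522). Libraries share only a number: correlations of same-numbered libraries' deviations ran from -0.026 to 0.056 in MOLM14 and from -0.037 to 0.047 in OCI-AML2, and 0 of 12 pairs in each line were over 0.1. Low values kept SRSF12 out of the tests, and none of the 10 SR genes.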
